A study of Triticum aestivum with 54 samples.

Results

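The genes described here are the leaf transcripts that stood higher in selfed generation S8 of the synthetic tetraploid wheat AT2 than in each of its preceding generations S5, S6 and S7. The level of a probe set is its deposited log2 intensity on the Affymetrix GeneChip Wheat Genome Array, a chip on which each transcript is read by a set of short oligonucleotides called a probe set. For every probe set the S8 leaf mean was taken minus the highest of the S5, S6 and S7 leaf means. The members were chosen by this score, as the 100 highest of 61115 probe sets (0.164%). Since they were selected on the leaf values of S5 to S8, those values are given as a description and carry no test.

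An allotetraploid joins the chromosome sets of different species in a single nucleus, so that most genes are present as homeologs, that is, as copies from either parent. Transcript levels in such plants are commonly set against the level expected from adding the parents together, and a gene above both parents is called transgressive. In a line kept by selfing, generations share their parentage, and a transcript that differs between them is read from different plants of the same descent. Probe sets of this array were not designed to separate homeologs, so each level is the sum over the copies that its oligonucleotides can bind.

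The study profiled 9 genotypes. AT2 (genome SlSlAA) was made by crossing Aegilops longissima TL05 (SlSl, the female parent) with Triticum urartu TMU06 (AA) and doubling the hybrid with colchicine, and was measured at generations S5, S6, S7 and S8, all from the same synthetic line. The natural tetraploids (BBAA) were TD, which is T. turgidum ssp. dicoccoides, the wild form, and TTR13, which is T. turgidum ssp. durum, the domesticated form. The diploid references were T. urartu, Ae. longissima and Mix, an in vitro "hybrid" made from equal amounts of RNA of both parents. Leaf RNA came from the second leaf, 3 weeks after sowing, and young inflorescence RNA from plants at booting, and each genotype had 3 arrays in either tissue (54 arrays). Every array held RNA of pooled plants, so the spread given below is between pools.

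Within a genotype, leaf arrays correlated at 0.982 to 0.995 over all probe sets, and those of S8 at 0.986 to 0.993. The tissue labels were borne out by 6 probe sets of nuclear photosynthesis genes (PRK, PsbP, PsbO and petC), which averaged 11.84 to 11.89 on the S8 leaf arrays, 11.70 to 12.00 on the other leaf arrays and 7.39 to 8.28 on the inflorescence arrays. Histone genes of dividing cells (18 probe sets) averaged 4.52 to 4.59 in S8 leaf and 4.32 to 4.87 in the other leaf arrays, with 7.91 to 9.55 in young inflorescence. Neither list set S8 leaf apart from the other leaf arrays. The raftin genes of the anther (4 probe sets) lay at background in both tissues, at 3.58 to 4.10 in young inflorescence and 3.70 to 4.64 in leaf. In bulk tissue, more RNA per cell and more cells of a kind cannot be told apart.

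The annotation at hand paired 1273 probe sets of the array with a gene (2.08%), and 11 of the 100 members among them, with 10 gene symbols. None of these symbols is more than a locus number, so that no member can be given a name or a role here. Of 13 lists of named genes (photosynthesis, histones, tubulins, defence, redox, hormone synthesis and others), 11 matched probe sets of the array, up to 18 each, and 0 of the 100 members were on any of them. The lists were matched by symbol or synonym, so members without annotation or with only a locus number could not be on them. That 0 was fixed in advance and is no result about the members. The members came from 79 transcript clusters, the number before the first point in a probe set's name after its prefix. In 16 clusters more than 1 probe set was a member, and these held 37 members. Of the 100, 16 carried the suffix x and 10 the suffix s (11.1% and 4.28% of the array), which mark oligonucleotides shared with other transcripts. Members of 1 cluster may read the same gene, so that they cannot be counted as separate genes.

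One member, Ta13464.1.S1_s_at, was among the genes for which the study designed primers to read the shares of the parental copies. It ranked 67 by score and is named for these sequences rather than for its level. Its primers are shown in lower case, 5′ to 3′, as the sequences by which the study itself followed a member, and the reverse primer carried biotin.
Ta13464.1.S1_s_at forward primer: cacgcccaataaagactaatttga
Ta13464.1.S1_s_at reverse primer: ttgctggagtgcttgatttaac
Ta13464.1.S1_s_at sequencing primer: actaatttgaggatagctga

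Ta13464.1.S1_s_at had leaf levels of 10.13, 10.35 and 10.24 in S8. In the preceding generations they were 8.77, 8.88 and 8.99 in S5, 7.11, 8.63 and 8.64 in S6 and 8.31, 8.83 and 8.50 in S7. No S5 to S7 array reached the lowest S8 array, while array 1 of S6 stood well under the other arrays of its own generation. T. urartu leaf had 7.56, 7.09 and 6.77, Ae. longissima leaf 7.48, 7.42 and 7.61, and Mix 7.03, 6.95 and 7.02. With TTR13 at 8.57, 9.00 and 8.92, S8 was the highest of all genotypes. TTR13 itself rose against Mix (log2 fold change 1.83 ± 0.16 SE, limma with Benjamini-Yekutieli adjusted p = 2.00e-06). TD, at 7.99, 7.90 and 7.86, rose against Mix by 0.91 ± 0.16 SE (limma, adjusted p = 0.00478).

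The score of the members ran between 1.14 and 4.39 on the log2 scale, with a median of 1.49, which is 2.21-fold to 20.9-fold with a median of 2.82-fold. Most scores lay at the low end, with 18 members over 2 and 2 members over 3. The last members were Ta20974.1.S1_at, Ta14222.1.S1_at and Ta6893.2.S1_at, with scores of 1.15, 1.14 and 1.14. The first probe sets outside were Ta810.3.S1_a_at, Ta2270.3.S1_a_at and TaAffx143995.13.S1_at, at 1.13, 1.13 and 1.13, so the limit falls in a continuous run of scores. S8 leaf means of the members lay between 4.52 and 12.9 with a median of 8.22, and 22 members were over 10. A median over all probe sets of a leaf array lay at 4.73 to 4.92, and a level under it cannot be told apart from background, so that a difference from such a level is a lower bound.

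**Figure D1:**
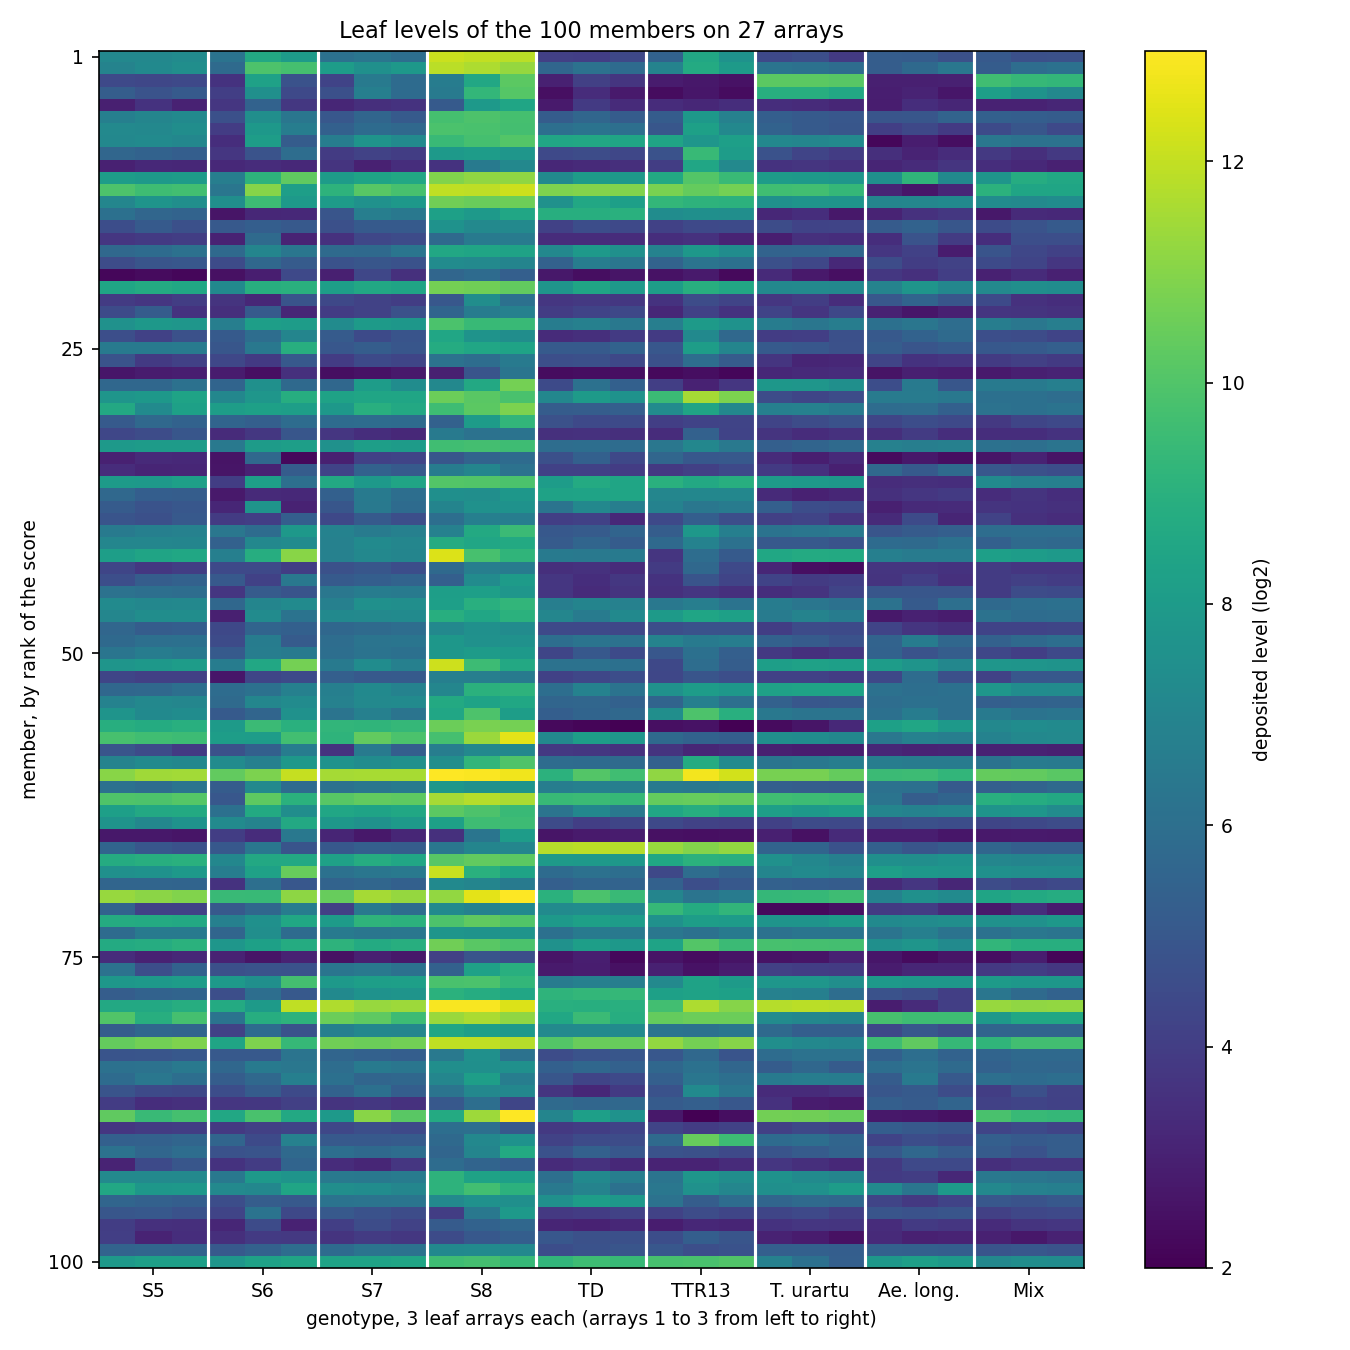
Leaf levels (deposited log2 values, colour scale) of the 100 members, one row each in order of the score, on the 27 leaf arrays, with 3 arrays per genotype as columns. The S8 block is brighter than the S5, S6 and S7 blocks in nearly every row by construction, array 1 of S6 is darker than arrays 2 and 3 in many rows, and some rows are as bright in TD, TTR13 or T. urartu as in S8.

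The member with the highest score, Ta26051.1.A1_at, is not annotated. Its leaf levels were 12.10, 12.01 and 11.88 in S8. Those of the other generations were 7.15, 7.14 and 7.31 in S5, 6.18, 8.62 and 8.02 in S6 and 6.10, 6.32 and 5.96 in S7. Every S8 array was thus at least 3.26 above every S5 to S7 array, the widest such gap among the members. TD and the diploids lay at or near background, with 4.07, 4.04 and 4.40 in TD. T. urartu had 4.42, 4.63 and 3.86, Ae. longissima had 5.24, 5.20 and 4.73, and Mix had 5.09, 4.68 and 4.71. TTR13 stood between, and its arrays differed from each other more than those of S8 did, at 5.47, 8.58 and 7.61. TTR13 rose against Mix (2.39 ± 0.50 SE, limma, adjusted p = 0.0168), but the adjusted p was 0.0831 to 0.0847 without array 2 or 3 of Mix, 0.0733 without array 2 of TTR13 and 0.11 without its array 3.

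The only other probe set of that cluster on the array, Ta26051.2.S1_at, was also a member. It read 7.61, 7.19 and 7.17 in S8 leaf and 4.58 to 5.27 on the 9 S5 to S7 arrays, with a score of 2.19. The generations S5 to S7 lay near background in this probe set, and S6 array 1 did not stand apart in it.

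TaAffx104641.1.S1_at had the next highest score, 3.12. It read 11.88, 11.64 and 11.27 in S8 leaf. The preceding generations had 6.90, 7.20 and 7.43 in S5, 5.79, 9.91 and 9.74 in S6 and 8.08, 7.53 and 7.87 in S7. S6 arrays 2 and 3 came nearest to S8, while S6 array 1 lay at the level of the diploids, which ranged from 5.22 to 6.34 over 9 arrays. TTR13 had 6.91, 8.73 and 7.99 and rose against Mix by 2.13 ± 0.36 SE (limma, adjusted p = 0.00257, or 0.131 when all 27 leaf arrays were fitted), whereas for TD, at 5.64, 6.14 and 5.85, the difference from Mix was 0.13 ± 0.36 SE (adjusted p = 1).

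TaAffx65415.1.S1_at, Ta22063.1.S1_s_at and Ta4753.1.S1_at also kept their S8 arrays close together and wide of the other generations. TaAffx65415.1.S1_at had 9.77, 9.93 and 9.77 in S8 leaf, with 6.74 to 7.21 in S5, 4.69, 7.42 and 6.31 in S6 and 5.01, 5.60 and 5.10 in S7. Ta22063.1.S1_s_at had 9.90, 9.83 and 9.71 in S8 leaf, with 7.18, 7.12 and 7.39 in S5, 3.96, 7.87 and 6.66 in S6 and 5.38, 5.85 and 5.72 in S7. In both, S7 lay under S5, so the generations did not follow an even course. Ta4753.1.S1_at had 7.93, 8.06 and 7.79 in S8 leaf, against 9.40 and 8.06 on TTR13 arrays 2 and 3 and 4.76 on TTR13 array 1. Its TTR13 minus Mix difference of 3.69 ± 0.71 SE passed the test (limma, adjusted p = 0.00853) and had an adjusted p of 0.0649 without TTR13 array 3. That SE pools the spread of all groups in the fit, while the TTR13 arrays alone had a standard deviation of 2.38.

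The 3 S8 arrays did not carry all members alike. The range over them (highest minus lowest array) was 0.06 to 4.54 with a median of 0.61, against a median of 0.29 over all probe sets. For 68 members the range was at most 1, and in 61 of these every S8 array lay above every S5 to S7 array. For the other 32 members it was over 1 (2.39% of all probe sets), and here the S8 arrays cleared the other generations in 7. Counted over all members, S8 arrays cleared those of S5 to S7 in 68, beside 2.78% of all probe sets, a count that the rule itself drives. The range was wider than the score for 27 members.

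Where the range was over 2, in 22 members (0.407% of all probe sets), the lowest array was S8 array 1 for 19 and S8 array 3 for 3. The same array was the lowest for 76.3% of the 249 probe sets of the whole chip with so wide a range. Over the 32 members with a range above 1, the median level was 6.71, 8.43 and 8.67 on S8 arrays 1, 2 and 3, and over the 68 others it was 8.37, 8.21 and 8.07. Array 1 was the lowest in 24 of the 32, and the split by range itself holds the arrays close together in the 68. When S8 array 1 was left out, 66 of the 100 stayed members. Leaving out any other S5 to S8 leaf array kept more, up to 98.

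**Figure D2:**
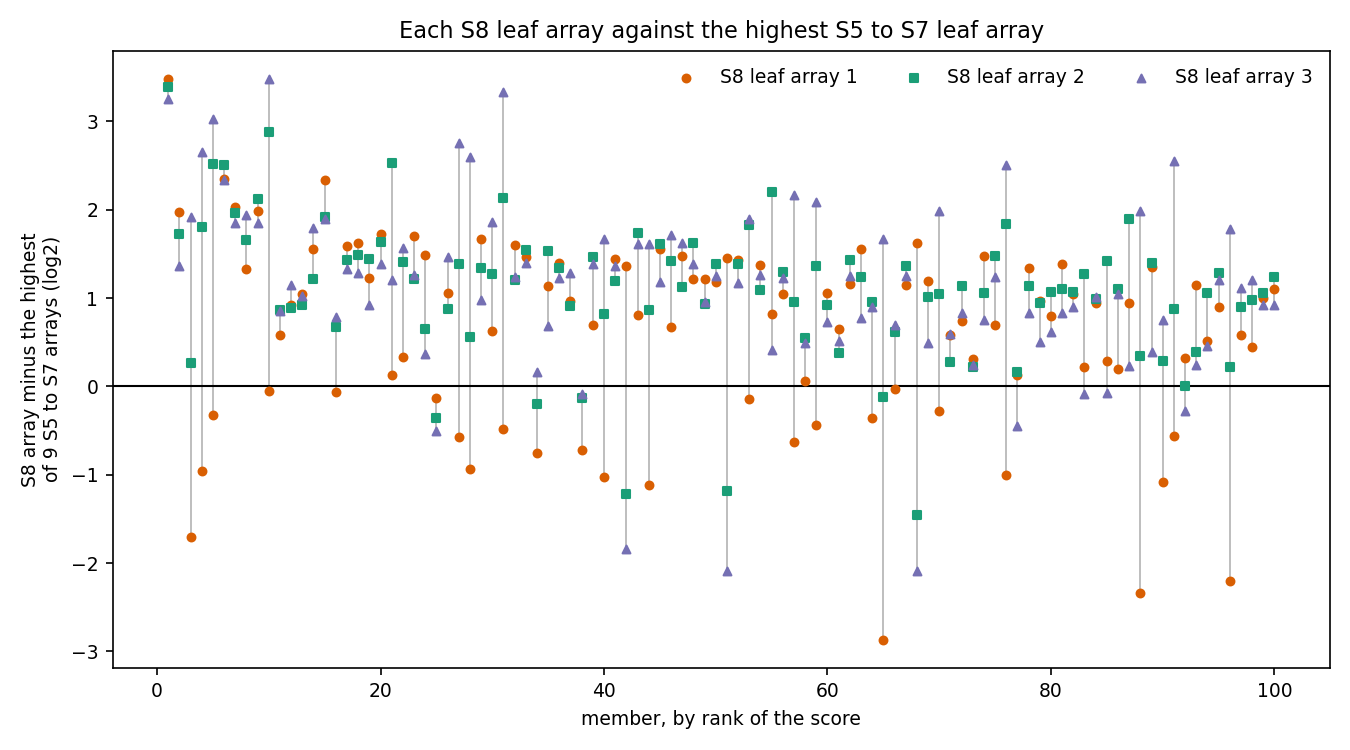
Level of each S8 leaf array minus the highest of the 9 S5 to S7 leaf arrays (log2), for the 100 members in order of the score. Points are the 3 S8 arrays and the line at 0 is the highest S5 to S7 array. S8 array 1 lies at or under the line for 25 members, array 2 for 7 and array 3 for 9.

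TaAffx15327.1.S1_at, with the third highest score, shows the wide pattern. Its leaf levels were 6.60, 8.58 and 10.23 in S8, with 4.42, 4.35 and 4.43 in S5, 3.62, 8.31 and 4.77 in S6 and 4.20, 6.49 and 5.86 in S7. S6 array 2 lay above S8 array 1, and the groups overlapped. Among the diploids this was a T. urartu transcript, at 10.21, 10.22 and 10.12, against 2.99, 2.95 and 3.00 in Ae. longissima and 9.61, 9.37 and 9.30 in Mix. The S8 arrays thus ran from well under Mix to slightly above it, and S5 to S7 lay under Mix throughout. In the natural tetraploids it was at background, at 3.01, 4.07 and 3.70 in TD and 2.83, 2.70 and 2.52 in TTR13.

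Ta25053.1.S1_at (LOC542887) followed it closely. It had 6.50, 9.27 and 10.12 in S8 leaf, with 5.23, 4.80 and 5.12 in S5, 4.06, 7.46 and 4.44 in S6 and 4.70, 6.75 and 5.84 in S7. T. urartu had 8.88, 8.89 and 8.58, Ae. longissima 2.90, 3.08 and 2.68, and Mix 8.18, 7.64 and 7.13. These were the only members in which S5, S6 and S7 all lay more than 1 below Mix, and the S8 mean lay below that of Mix in TaAffx15327.1.S1_at (8.47 against 9.43) and above it in Ta25053.1.S1_at (8.63 against 7.65). S8 array 1 was the lowest of its group in both.

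Ta62.1.S1_x_at (LOC543422) and Ta959.1.S1_at (LOC543317) had the same order of S8 arrays. Ta62.1.S1_x_at read 8.73, 11.40 and 13.04 in S8 leaf, so that S5, with 10.33, 9.44 and 9.75, lay inside that span and S7, with 7.95, 11.06 and 10.18, reached below it. Ta959.1.S1_at read 7.15, 8.64 and 10.68 in S8 leaf, with 5.53 to 8.09 on the S5 to S7 arrays. In Ta2789.1.S1_a_at (LOC542773) the S8 order was turned round, with 12.08, 9.00 and 8.37, while S6 had 6.64, 8.32 and 10.46. All 3 members of the Ta2789 cluster had S8 array 1 as the highest, and the fourth probe set of that cluster on the chip, with a score of 0.05, was not a member.

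Some members with wide ranges over the S8 arrays were near background in the diploids and natural tetraploids. Ta23307.1.S1_at had 3.54, 6.29 and 8.08 in S8 leaf and 2.44 to 3.30 in the diploids and natural tetraploids, while S6 array 3 reached 6.41. Ta24934.3.S1_at had 3.98, 6.40 and 7.97 in S8 leaf and 3.81 to 4.92 in those genotypes. Ta14946.1.S1_at had 5.12, 7.96 and 8.47 in S8 leaf and 2.78 to 3.85 in them, with 5.44 on S6 array 2. Ta13546.1.A1_at had 5.42, 8.03 and 9.24 in S8 leaf and 5.11 to 5.90 on the S5 to S7 arrays. In each of these 4, S8 array 1 lay under the highest S5 to S7 array.

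The members also varied within S6. There the range over 3 arrays was above 1 for 80 members, beside 3.81% of all probe sets, and array 1 was the lowest for 76 members, beside 30.8% of all. The median level of the members was 5.07, 6.46 and 6.31 on S6 arrays 1, 2 and 3. In S5 it was 5.97, 5.87 and 6.04, and in S7 5.97, 6.43 and 6.23. S6 arrays 2 and 3 were thus close to S7, and S6 array 1 close to the diploids. These arrays entered the rule. The score is taken against the highest of the S5, S6 and S7 means, which was that of S6 in 27 members, S7 in 49 and S5 in 24. A low S6 array lowers the S6 mean, and can so keep it from being the highest.

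The arrays of TTR13 leaf and S8 young inflorescence did not enter the rule, and members differed between them as well. In TTR13 leaf, 33 members had a range above 1 (2.8% of all probe sets), and array 1 was the lowest in 32 of them. The median level was 5.41, 6.33 and 6.16 on TTR13 arrays 1, 2 and 3. Over all members, S6 leaf array 1 was the lowest of a range above 1 in 61, and 20 of these were among the 32. In S8 young inflorescence, 15 members had a range above 1 (1.01% of all probe sets), and array 3 was the lowest in all 15. Of the 61 members with S6 leaf array 1 so low, 13 were among those 15. The S6 arrays entered the rule, and the shares over all probe sets were not computed. No link between the low arrays is therefore read from the 20 or the 13. The part of differences between pools in the results was not tested.

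Ta22766.2.S1_x_at, Ta16450.2.S1_at and Ta9102.2.S1_x_at show how large the gap in S6 could be beside steady S8 arrays. Ta22766.2.S1_x_at read 9.45, 9.78 and 10.06 in S8 leaf and 3.44, 8.12 and 5.22 in S6. Ta16450.2.S1_at read 11.51, 11.78 and 11.60 in S8 leaf, against 4.97, 10.26 and 9.01 in S6 and 9.94 to 10.35 in S5 and S7. Ta9102.2.S1_x_at read 11.94, 11.96 and 11.79 in S8 leaf, against 8.43, 10.85 and 9.36 in S6 and 10.39 to 10.89 in S5 and S7. Every S8 array was above every S5 to S7 array in all 3.

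Against the diploids, S8 was above both parents and Mix in 97 members, in 90 of them by more than 1, and the median S8 minus Mix difference was 2.59. All S8 arrays exceeded all parental and Mix arrays in 86 members, beside 7.29% of all probe sets. The S8 arrays entered the rule, so nothing is read from this count. S5, S6 and S7 did not share a single starting level. In 36 members their means all lay within 1 of Mix, and in 21 all lay more than 1 above it, with a median S8 minus Mix difference of 2.03 in the 36 and 3.79 in the 21. The remaining members were mixed, apart from the pair below Mix. The S5 to S7 arrays entered the rule, and shares over all probe sets were not computed. No class of genes is therefore read from the 36 or the 21.

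In 27 members every array of T. urartu, Ae. longissima and Mix was under its array median. In 6 of these 27 the S5 to S7 arrays were under it as well, and in 22 of the 27 all S8 arrays were above it. Over all members, the S8 arrays were all above it in 93, a count that the rule drives. Shares over all probe sets were not computed for the 27, the 6 or the 22, so no class of genes is read from them. Ta20385.1.S1_at was among the 27. It had 8.25, 7.91 and 8.49 in S8 leaf. The preceding generations had 6.07, 5.64 and 5.50 in S5, 2.64, 3.22 and 3.26 in S6 and 4.88, 6.69 and 6.39 in S7. Its diploid arrays lay between 2.69 and 3.77, and in TD, at 8.90, 8.91 and 8.96, it was above every S8 array.

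Over all 9 genotypes, S8 had the highest leaf mean in 87 members. TD had it in 6, TTR13 in 5 and T. urartu in 2. "High only in S8" therefore describes these members among the AT2 generations and not among all genotypes. TTR13 was within 1 of S8 or above it in 24 members, TD in 14, T. urartu in 8, Mix in 4 and Ae. longissima in 2. In 52 members every S8 array was above all 24 other leaf arrays, beside 1.55% of all probe sets, again a count that the rule drives.

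**Figure D3:**
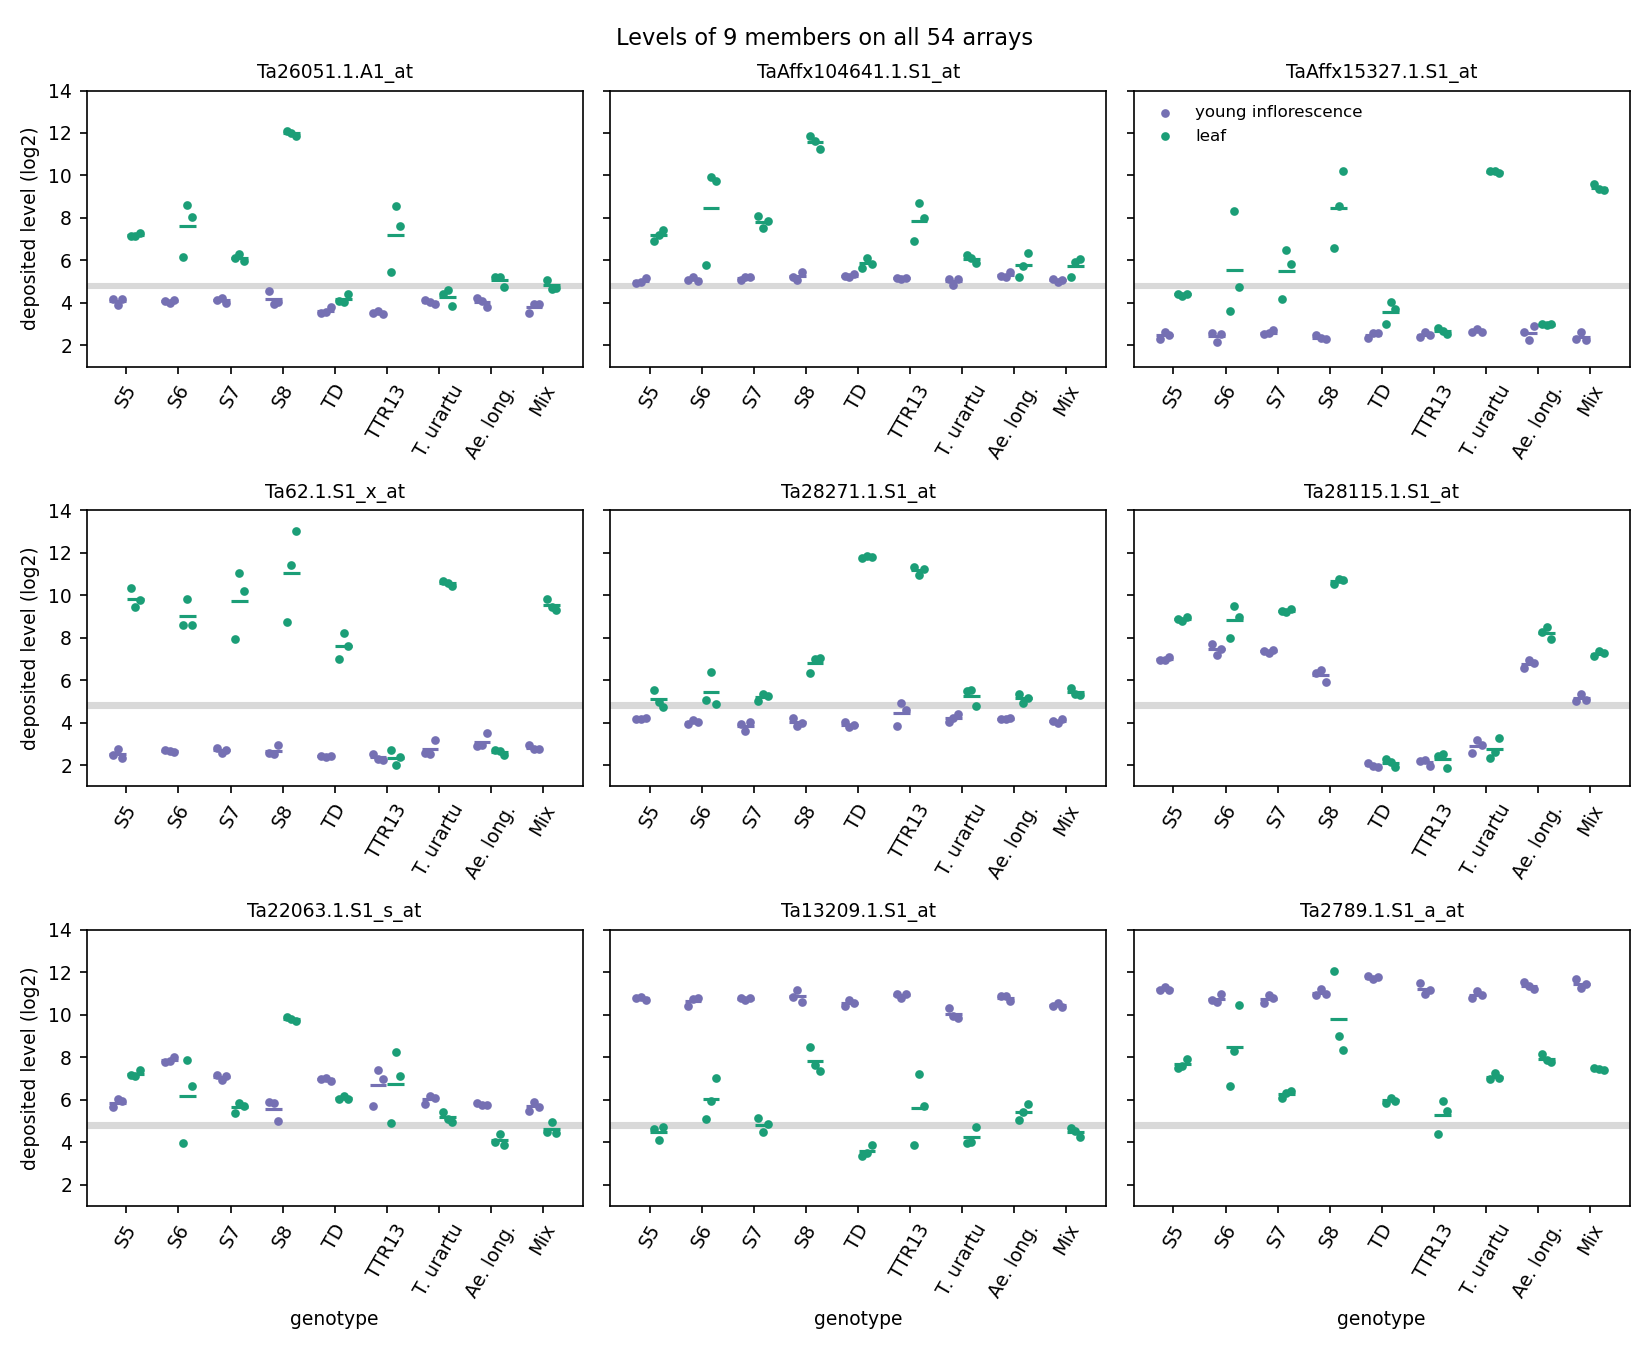
Levels (deposited log2 values) of 9 members on all 54 arrays, by genotype, with young inflorescence left of leaf. Points are arrays, short bars are means of 3 arrays, and the grey band spans the medians of the arrays (4.69 to 4.92). Ta26051.1.A1_at and TaAffx104641.1.S1_at peak in S8 leaf, Ta28271.1.S1_at is highest in TD and TTR13 leaf, and Ta13209.1.S1_at and Ta2789.1.S1_a_at are higher in young inflorescence.

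How the members behave in genotypes that the rule did not use was tested on the 15 leaf arrays without AT2. Calls were made where the p-value, adjusted by Benjamini-Yekutieli over all 61115 probe sets, was under 0.05. The natural tetraploids show whether members also depart from the diploids in other tetraploid wheats, and both were set against the same Mix arrays. In TTR13, 50 members were called, beside 17.8% of all probe sets. Of them 38 rose (8.68% of all) and 12 fell (9.09% of all), and the median difference was 0.68 over the members and -0.13 over all probe sets. In TD, 39 were called (16.4% of all), 24 higher (8.83%) and 15 lower (7.61%), with a median of 0.05 over the members and -0.12 over all. With all 27 leaf arrays fitted, TD had 22 calls, 17 higher and 5 lower.

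As a description, the calls were also counted by the S8 range, a value of arrays that the rule used. Of the 68 members with an S8 range of at most 1, 33 rose and 1 fell in TTR13, and 23 rose and 4 fell in TD. Of the 32 with a wider range, 5 rose and 11 fell in TTR13, and 1 rose and 11 fell in TD. The difference between these sets of members was not tested, and the share over all probe sets of a like range was not computed.

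Of all members, Ta28271.1.S1_at was the farthest above Mix in TD. It had 11.76, 11.86 and 11.79 in TD and 11.32, 10.97 and 11.22 in TTR13, against 5.65, 5.34 and 5.32 in Mix. The log2 fold changes were 6.36 ± 0.18 SE in TD (adjusted p = 8.96e-13) and 5.73 ± 0.18 SE in TTR13 (limma, adjusted p = 3.23e-12). S8, at 6.35, 6.99 and 7.07, was high only by the measure of the AT2 generations and the diploids, and lay far under both natural tetraploids.

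Of all members, TaAffx131611.1.S1_at was the farthest above Mix in TTR13, with 9.39, 8.78 and 9.25 in TTR13 and 7.27, 7.37 and 7.15 in TD, against 2.77, 3.43 and 2.82 in Mix. The TTR13 difference was 6.14 ± 0.20 SE (limma, adjusted p = 3.77e-12) and the TD difference 4.26 ± 0.20 SE (adjusted p = 4.22e-10). S8 leaf, at 7.20, 6.89 and 7.21, stood at the level of TD. Ta20385.1.S1_at rose by 5.83 ± 0.20 SE in TD and 4.32 ± 0.20 SE in TTR13 (adjusted p = 8.87e-12 and 4.45e-10). In these members the Mix level was under the array median, so the folds are lower bounds. The other member of the TaAffx131611 cluster was called higher in TD but was not called in TTR13.

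Ta6893.2.S1_at, the last member, was higher in natural tetraploids at a level well above background, with 9.23, 9.60 and 9.42 in TD and 9.82, 9.85 and 10.01 in TTR13, against 7.15, 7.39 and 7.33 in Mix. Its S8 arrays read 9.57, 9.71 and 9.39 and overlapped those of TD. The differences from Mix were 2.13 ± 0.25 SE in TD (adjusted p = 5.89e-05) and 2.60 ± 0.25 SE in TTR13 (limma, adjusted p = 5.11e-06).

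Members that fell in the natural tetraploids were led by transcripts of 1 diploid parent. Ta62.1.S1_x_at had 2.69, 2.00 and 2.39 in TTR13 and 7.01, 8.23 and 7.62 in TD, against 9.83, 9.43 and 9.31 in Mix. It fell by 7.16 in TTR13 (SE 0.24, limma, adjusted p = 5.5e-12) and by 1.91 in TD (SE 0.24, adjusted p = 0.000117, or 0.469 when all 27 leaf arrays were fitted). TaAffx15327.1.S1_at fell by 6.74 in TTR13 and by 5.83 in TD (SE 0.19 each, adjusted p = 6.81e-13 and 4.04e-12). Ta28115.1.S1_at, which is an Ae. longissima transcript among the diploids, had 2.44, 2.53 and 1.89 in TTR13 and 2.27, 2.16 and 1.90 in TD, against 7.13, 7.36 and 7.28 in Mix. It fell by 4.97 in TTR13 and by 5.14 in TD (SE 0.22 each, adjusted p = 2.28e-10 and 1.38e-10). The levels in both natural tetraploids were at background, so these falls are lower bounds, apart from Ta62.1.S1_x_at in TD.

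Between the parents, 44 members were called, beside 22.2% of all probe sets. T. urartu was higher in 24 (10.5% of all) and Ae. longissima in 20 (11.8% of all). In 16 of the 24 the Ae. longissima arrays were under their medians, and in 14 of the 20 the T. urartu arrays were. Over the 24 the median of the leaf means was 8.80 in S8, 7.81 in T. urartu and 6.78 in Mix, and over the 20 it was 7.75 in S8, 5.27 in Ae. longissima and 4.54 in Mix. A difference between species in transcript level and one in how well their copies match the probes cannot be told apart on this array.

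Ta14995.2.S1_a_at had the largest difference between the parents. T. urartu leaf had 11.77, 11.84 and 11.82, against 2.89, 3.34 and 4.03 in Ae. longissima, a difference of at least 8.39 ± 0.35 SE (limma, adjusted p = 5.58e-11). AT2 had 8.64, 8.65 and 8.85 in S5, 8.72, 8.01 and 11.93 in S6, 11.70, 11.29 and 11.38 in S7 and 12.89, 12.87 and 12.44 in S8. Mix had 11.29, 11.16 and 11.23, so S5 was far under it and S8 above it, while S6 array 3 was at the height of S7.

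The 3 probe sets of the Ta22766 cluster, all of its probe sets on the chip, were members with scores of 1.87 to 2.55. Ta22766.1.S1_a_at had 11.95, 11.91 and 12.17 in S8 leaf, with 9.92, 9.57 and 9.66 in S5, 6.33, 11.02 and 8.17 in S6 and 9.11, 10.14 and 9.79 in S7. T. urartu had 9.64, 9.68 and 9.34, against 3.15, 2.68 and 3.24 in Ae. longissima, a difference of 6.53 ± 0.18 SE (limma, adjusted p = 2.63e-13). In TD, at 10.87, 10.97 and 10.90, it rose against Mix by 2.25 ± 0.18 SE (adjusted p = 3.98e-07), and in TTR13, at 10.80, 10.40 and 10.71, by 1.97 ± 0.18 SE (adjusted p = 2.15e-06). With all 27 leaf arrays fitted, these adjusted p were 0.0558 and 0.141. Among the diploids this was thus a T. urartu transcript, and all tetraploid arrays but arrays 1 and 3 of S6 were above Mix, at 9.05, 8.48 and 8.47.

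Ta28115.1.S1_at was the counterpart on the Ae. longissima side. It had 2.34, 2.61 and 3.27 in T. urartu, against 8.27, 8.50 and 7.92 in Ae. longissima (difference of -5.49 ± 0.22 SE, limma, adjusted p = 3.95e-11). S8 leaf had 10.53, 10.78 and 10.72, S5 8.89, 8.79 and 8.95, S6 7.99, 9.49 and 8.96, and S7 9.26, 9.19 and 9.33. The 3 preceding generations were already above Mix, and S8 was above Ae. longissima itself.

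The other members with a locus number as symbol did not share a pattern. Ta26928.1.S1_a_at (LOC778400) had 8.61, 8.45 and 8.34 in S8 leaf, against 5.72 to 7.01 over the S5 to S7 arrays, and was higher than Mix in TD by 3.08 ± 0.29 SE and in TTR13 by 2.92 ± 0.29 SE (limma, adjusted p = 4.19e-06 and 7.77e-06). Ta8614.1.S1_at (LOC100049032) had 7.06, 9.04 and 9.10 in S8 leaf, and T. urartu, at 8.31, 8.40 and 8.36, was higher than Ae. longissima, at 6.09, 5.96 and 6.05, by 2.32 ± 0.19 SE (adjusted p = 5.34e-07). S8 array 1 of this probe set lay under the highest S7 array, at 7.21. The Ta9320 probe sets (LOC543338) read 5.76, 6.69 and 6.57 for Ta9320.1.S1_at and 6.25, 7.15 and 7.10 for Ta9320.1.S1_x_at in S8 leaf, and they rank 43 and 86 although they carry the same symbol. Ta18487.2.S1_at (LOC543383) had 8.49, 8.21 and 7.94 in S8 leaf and 6.74, 7.11 and 7.05 in S7, with 4.17 to 5.84 over the S5 and S6 arrays, so that here S7 already stood above S5 and S6.

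Young inflorescence of the same generations was the test of whether S8 also stood out in another tissue, on arrays that the rule did not use. The S8 minus mean of S5, S6 and S7 difference was called for 7 members, beside 0.774% of all probe sets, and in all 7 S8 was lower (0.288% of all) and in 0 higher (0.486% of all). At an unadjusted p under 0.05 there were 30 members, 7 of them higher, and Benjamini-Hochberg adjustment called 10, of which 1 was higher and 9 lower. The median difference was -0.08 over the members and -0.01 over all probe sets, and the range was -1.36 to 0.54, so that no member stood 1 or more above. Without array 1 of S8 inflorescence, 3 members were called, and with only the 4 generations fitted, 4 were called, all lower.

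**Figure D4:**
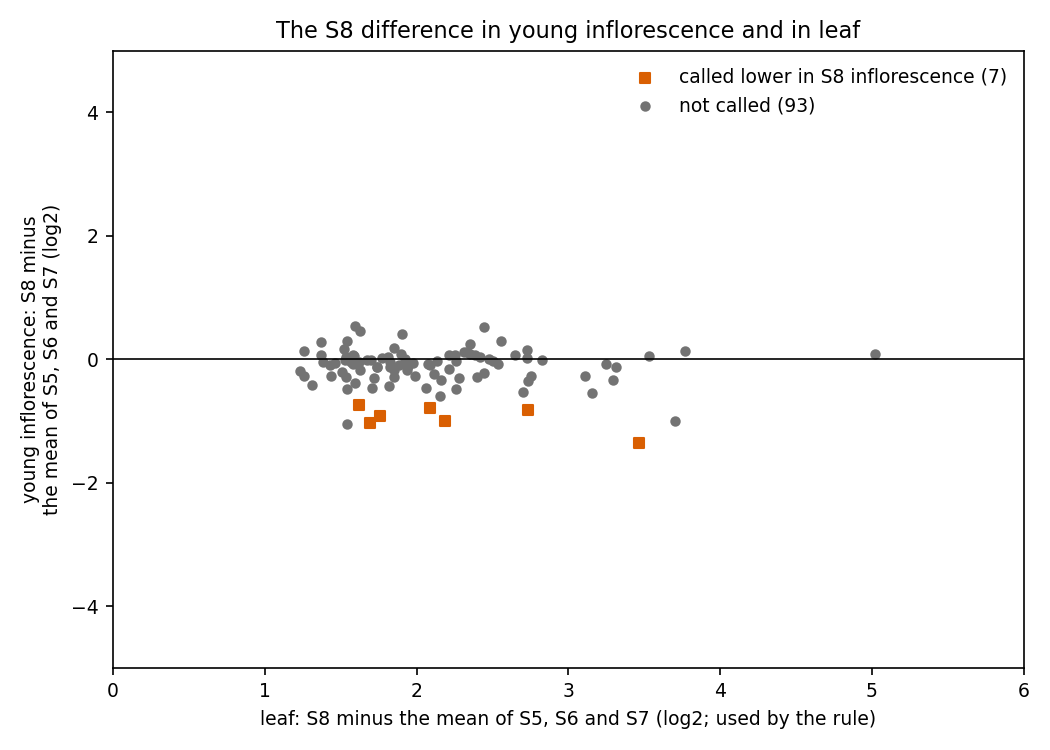
Difference of S8 from the mean of S5, S6 and S7 in young inflorescence (vertical, log2) against the same difference in leaf (horizontal, log2), one point per member. The leaf axis was used by the rule. All points lie right of 0 by construction, and in young inflorescence they lie between -1.36 and 0.54, with the 7 called members (squares) below 0.

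Ta22063.1.S1_s_at was the farthest below. It had 5.89, 5.84 and 5.02 in S8 inflorescence, with 5.66, 6.02 and 5.94 in S5, 7.76, 7.82 and 8.03 in S6 and 7.18, 6.95 and 7.11 in S7. S6 and S7 stood above S8 without overlap, and S5 did not. The difference of -1.36 ± 0.21 SE passed the test (limma, adjusted p = 0.00508) and had an adjusted p of 0.0770 without S8 array 3. Ta28115.1.S1_at had 6.35, 6.46 and 5.91 in S8 inflorescence, against 6.95 to 7.71 over the 9 arrays of S5 to S7, and fell by 1.03 (SE 0.12, limma, adjusted p = 0.000322). The same probe set was higher in S8 than in Mix, at 5.01, 5.36 and 5.09 (1.09 ± 0.15 SE, adjusted p = 0.000117).

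Ta16450.2.S1_at had 6.26, 6.61 and 5.39 in S8 inflorescence, against 6.49 to 7.36 in S5 to S7, and fell by 1.00 (SE 0.16, limma, adjusted p = 0.00576, or 0.126 with only the 4 generations fitted). Ta3927.1.S1_at had 5.11, 5.37 and 5.92 in S8 inflorescence, against 5.71 to 7.54, and fell by 0.92 (SE 0.16, adjusted p = 0.0146). That call had an adjusted p of 0.45 without S8 array 1, 0.123 without S8 array 2 and 0.198 with only the 4 generations fitted. The other calls were Ta28255.1.A1_at, which fell by 0.81, and the pair of probe sets of cluster Ta22443 (Ta22443.1.S1_at and Ta22443.1.S1_s_at), which fell by 0.80 and 0.74 (adjusted p = 0.0138, 0.0274 and 0.0467). The contrast weighs S5, S6 and S7 alike, and S6 was the highest of the 4 generations in inflorescence for 52 members, S5 for 21, S7 for 16 and S8 for 11.

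TaAffx65415.1.S1_at and Ta4753.1.S1_at were 2 members with S6 the highest in inflorescence. TaAffx65415.1.S1_at had 5.66, 5.80 and 5.76 in S5, 7.52, 7.69 and 8.09 in S6, 6.85, 6.45 and 6.52 in S7 and 5.80, 6.24 and 5.08 in S8. Ta4753.1.S1_at had 4.72, 3.96 and 4.25 in S5, 7.70, 7.78 and 7.99 in S6, 5.99, 5.87 and 5.94 in S7 and 4.22 to 6.24 in S8. In both the S6 inflorescence arrays were close together and above all other generations, unlike the S6 leaf arrays, and S8 array 3 was the lowest of its group. S8 minus the mean of S5 to S7 was -0.99 ± 0.23 SE and -0.54 ± 0.38 SE (limma, adjusted p = 0.165 and 1).

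In inflorescence 34 of the 100 members were under the array median on all 27 arrays, where levels cannot be told apart from background, and 35 were above it on all 27. In 51 members the 9 genotype means of inflorescence lay within 1 of each other. The shares of all probe sets that meet these criteria were not computed, so no trait of the members is read from these counts. Ta26051.1.A1_at had 4.55, 3.97 and 4.03 in S8 inflorescence and 3.49 to 4.22 over the other 24 inflorescence arrays, all under the median. TaAffx104641.1.S1_at had 5.20, 5.07 and 5.47 in S8 inflorescence and 4.84 to 5.44 over the others. These members with the highest scores in leaf held a flat low signal in every inflorescence genotype, unlike TaAffx65415.1.S1_at and Ta4753.1.S1_at.

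Against Mix, S8 inflorescence was called for 15 members, beside 8.3% of all probe sets, with 11 higher (4.97% of all) and 4 lower (3.32% of all). With only S8 and Mix fitted, 6 were called, 2 higher and 4 lower. Both inflorescence comparisons rest on the same S8 arrays. Ta11296.2.S1_at had 5.75, 6.14 and 5.23 in S8 inflorescence, against 4.11, 4.52 and 4.07 in Mix (1.48 ± 0.18 SE, limma, adjusted p = 1.99e-05), and TaAffx105784.1.S1_at had 5.28 to 6.05, against 3.95, 4.92 and 4.46 (1.33 ± 0.18 SE, adjusted p = 7.09e-05). TaAffx86800.1.S1_x_at had 6.97, 6.97 and 6.09, against 5.33, 5.72 and 5.49 (1.16 ± 0.17 SE, adjusted p = 0.000138). S8 was above Mix without overlap in each, and S8 array 3 was again the lowest. With only S8 and Mix fitted, the adjusted p was 0.146 for TaAffx105784.1.S1_at and 0.131 for TaAffx86800.1.S1_x_at.

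Ta7104.1.S1_at was the farthest below Mix, with 7.28, 7.28 and 6.77 in S8 inflorescence, against 8.57, 8.53 and 8.53 in Mix, and fell by 1.43 (SE 0.18, limma, adjusted p = 1.67e-05). Leaf differed, since S8 leaf had 10.60, 10.18 and 9.87 and Mix leaf 9.26, 8.89 and 8.91. In Ta74.1.S1_at (LOC542857), S8 inflorescence had 7.11, 7.24 and 7.13, against 8.15, 7.92 and 7.94 in Mix, and fell by 0.84 (SE 0.12, adjusted p = 0.000105), while in leaf S8 had 8.19, 8.93 and 9.23 and Mix 5.75, 5.99 and 6.08. Ta1804.1.S1_s_at (LOC543124) went the other way, with 8.60, 8.60 and 8.11 in S8 inflorescence, against 7.67, 7.66 and 7.84 in Mix (0.72 ± 0.12 SE, adjusted p = 0.00119, or 0.170 with only S8 and Mix fitted).

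The levels of the members in the tissues were compared on the 30 arrays of the 5 genotypes other than AT2. Young inflorescence differed from leaf in 84 members, beside 61.5% of all probe sets. It was lower in 64 (32.8% of all) and higher in 20 (28.7% of all), and the median difference was -0.71 over the members and -0.05 over all. Only 2 members had an S8 leaf mean under the array median. The rule thus left out nearly all probe sets silent in S8 leaf, but not those silent in inflorescence. All probe sets are therefore no like base, and no tissue of the members is read from the 64 and the 20. For the 64, the median of the means was 4.14 in S8 inflorescence and 8.47 in S8 leaf, and 4.15 in Mix inflorescence and 5.80 in Mix leaf. S8 leaf was above all 9 inflorescence means in each of these 64 members. This count follows largely from the choice by S8 leaf level and from the call itself, so nothing is read from it.

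Ta14995.2.S1_a_at led them, with all 27 inflorescence arrays between 2.60 and 3.52 and a difference between the tissues of -6.12 ± 0.13 SE (limma, adjusted p = 9.68e-26). Ta22766.1.S1_a_at was lower in inflorescence by 5.19 (SE 0.12, adjusted p = 5.22e-24), though its S6 inflorescence arrays, at 6.16, 5.23 and 5.02, were above the 2.89 to 3.90 of S8. Ta9102.2.S1_x_at was lower by 4.87 (SE 0.12, adjusted p = 8.83e-24). For probe sets this low in inflorescence the differences are lower bounds.

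The 20 members that were higher in inflorescence include Ta13209.1.S1_at and the Ta2789 cluster. Ta13209.1.S1_at had 10.86, 11.16 and 10.61 in S8 inflorescence and 8.49, 7.66 and 7.37 in S8 leaf. In leaf the S5 and S7 arrays had 4.12 to 5.16 and S6 had 5.12, 5.94 and 7.01, while no inflorescence array was under 9.86. The difference between the tissues was 5.89 ± 0.18 SE over the 5 genotypes (limma, adjusted p = 3.56e-21). Ta2789.1.S1_a_at had 10.93, 11.21 and 10.97 in S8 inflorescence, and the difference was 4.61 ± 0.10 SE (adjusted p = 2.94e-25). Only S8 leaf array 1, at 12.08, reached that height.

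Over these 20 members the median of the means was 7.20 in S8 inflorescence and 7.25 in S8 leaf, and 7.63 in Mix inflorescence and 4.69 in Mix leaf. The S8 leaf level was selected to be high, and single members went both ways, with S8 leaf under all inflorescence means in 7 and above all of them in 4. In the histone and photosynthesis lists S8 leaf lay within the range of the other leaf arrays.

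The difference between the parents also changed with the tissue. The interaction, which is the inflorescence difference of T. urartu minus Ae. longissima less the same difference in leaf, was called for 38 members, beside 18.2% of all probe sets. It was positive in 14 (10.1% of all) and negative in 24 (8.19% of all), the largest being T. urartu leaf transcripts such as Ta62.1.S1_x_at, whose inflorescence arrays lay between 2.25 and 3.51 in all genotypes.

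**Figure D5:**
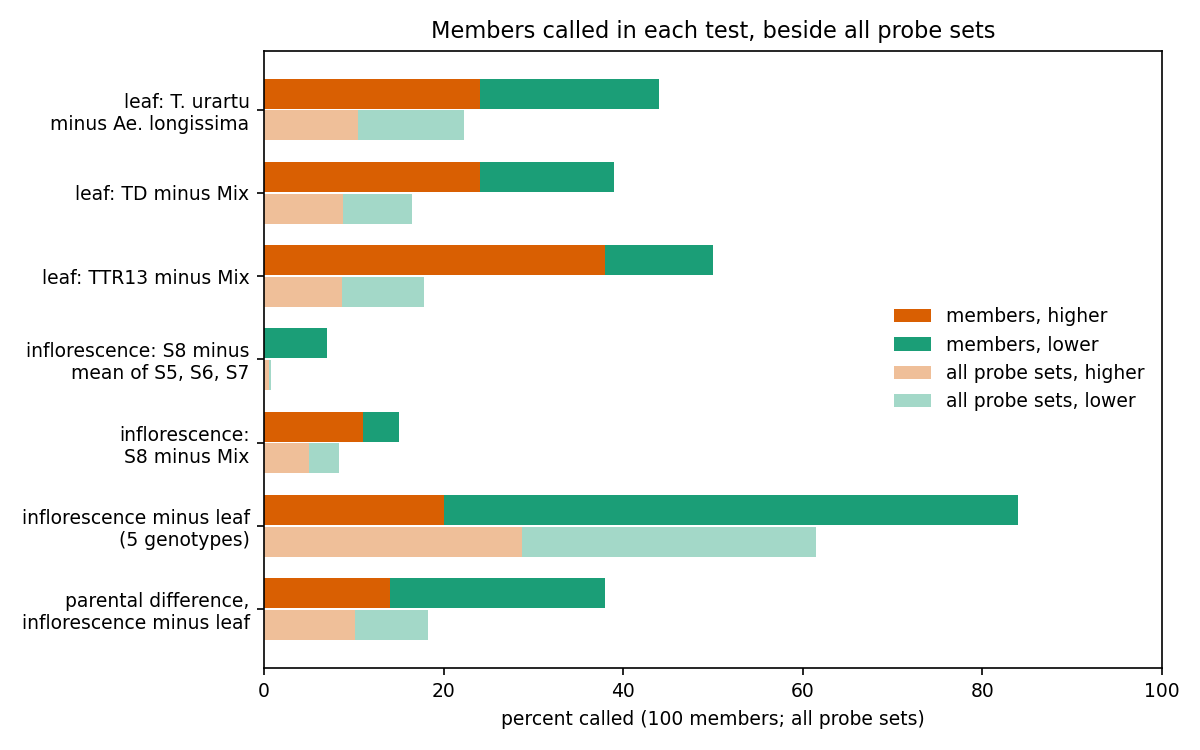
Percent of the 100 members (upper bar of each pair) and of all 61115 probe sets (lower, paler bar) that were called in each test, split into higher and lower in the group named first. Members were called more often than all probe sets in each comparison, at 50 against 17.8% for TTR13 minus Mix, and for S8 inflorescence against S5 to S7 all 7 calls are lower. All probe sets include many near background. Over brighter probe sets alone, 62 of 69 members were called between the tissues, beside 86.0% of all such probe sets. Between the parents it was 33 of 59, beside 47.0%.

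The counts were repeated over brighter probe sets alone, those for which all 3 arrays of at least 1 genotype exceeded the 65th percentile of their array. Of the members, 59 members passed in leaf, 48 in inflorescence and 69 over both tissues. There, 39 of 59 members were called in TTR13 (39.6% of all such probe sets), 32 in TD (37.5%) and 33 between the parents (47.0%). For S8 inflorescence against S5 to S7 it was 7 of 48 (2.3%), for S8 inflorescence against Mix 15 of 48 (19.4%), and between the tissues 62 of 69 (86.0%). Between the tissues and between the parents, the members' shares lay nearer to those of all such probe sets than in the full counts. A member may pass this filter through the group in which it is high, so that these counts are no support for a difference.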

How the data were processed

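The values are the log2 expression levels that the authors deposited for 61115 probe sets on 54 arrays, computed from the scans by robust multichip average, which normalizes arrays by quantiles. The submitters' processing notes also name limma and MAS5, without versions. The MAS5 present calls were not used here. The values were used as deposited, and 0 columns were left unmatched. Genotypes were read from the sample titles, since the labels' own genotype entry reads AT2 for every array.

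The members and the gene lists were chosen with earlier results of these data known. Tests used limma 3.58.1 in R 4.3.3 (lmFit and eBayes, 1 mean per genotype and tissue, tables read with the R package data.table, version 1.17.8), with Benjamini-Yekutieli adjustment over all 61115 probe sets and a threshold of 0.05, as in the study's methods. Leaf fits held the 15 arrays without AT2, inflorescence fits 27 arrays and the tissue fits 30. Mix holds RNA of both parents, and whether its 3 mixtures are of different pools is not given in the sources used here, so the p-values measure only the spread between pools or mixtures. Precision is limited by there being 3 arrays a group. The variance of a probe set is pooled over all groups of a fit. An SE therefore understates the spread of a group whose arrays differ more than the others, as TTR13 leaf did in Ta4753.1.S1_at and Ta26051.1.A1_at. The fit was tested on simulated data.

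Named probe sets were those with 1 gene symbol, the 8 highest scores, the 6 widest gaps between S8 and S5 to S7 arrays, the 4 widest S8 ranges, the 4 largest called differences of each comparison, and ranks 98 to 103. Ta13464.1.S1_s_at was added for its primers, and Ta28255.1.A1_at and the Ta22443 probe sets, chosen after their values were seen, to name all calls of S8 inflorescence against S5 to S7. Names are printed without the point after Ta or TaAffx. Symbols were matched through a platform annotation and a RefSeq gene list of bread wheat (IWGSC CS RefSeq v2.1). Alternatives were another adjustment, a filter at the 65th percentile, other sets of arrays, median centring, quantile normalization, a replicate block, other scores, and leaving out each array. Plots and counts used Python 3.11.15, pandas 2.3.3, numpy 2.4.6 and matplotlib 3.10.9.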

Additional observations from a re-analysis of the deposited data

Results flagged for a closer look

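The difference between the parents was itself different in the tissues for 38 members (an interaction over 30 arrays, limma with Benjamini-Yekutieli adjustment), beside 18.2% of all probe sets. It was more positive in young inflorescence than in leaf for 14 (10.1% of all) and more negative for 24 (8.19% of all). The largest were transcripts that T. urartu held high in leaf and that both parents held at background in inflorescence. Ta62.1.S1_x_at had an interaction of -8.29 (SE 0.31, adjusted p = 2.76e-17), with 2.55, 2.53 and 3.18 in T. urartu and 2.89, 2.95 and 3.51 in Ae. longissima inflorescence. Ta14995.2.S1_a_at had -8.23 (SE 0.40, adjusted p = 7.74e-15), TaAffx15327.1.S1_at -7.13 (SE 0.25, adjusted p = 4.99e-18) and Ta22766.1.S1_a_at -6.15 (SE 0.39, adjusted p = 4.45e-12). All 4 had T. urartu above Ae. longissima on all 3 leaf arrays. Groups here hold 3 arrays, so that single arrays were not tested as outliers.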

How the results depend on the processing

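Of the 100 members, 62 stayed when the score was taken against the mean of S5, S6 and S7, 83 with genotype medians, 97 after quantile normalization, 100 after median centring, and 66 to 98 when 1 S5 to S8 leaf array was left out. Among members called, S8 inflorescence against Mix went to 23 with Benjamini-Hochberg adjustment and to 6 (2 higher, 4 lower) when only the groups compared were fitted, and S8 inflorescence against S5 to S7 to 4 with only the groups compared. TD against Mix gave 22 (17 higher, 5 lower) when all 27 leaf arrays were fitted. The cause was not tested. With each array omitted in turn, counts were 37 to 51 between the parents, 32 to 41 for TD, 40 to 59 for TTR13, 3 to 8 for S8 inflorescence against S5 to S7, 11 to 20 against Mix, 83 to 86 between tissues and 33 to 44 for the interaction. Of 3516 values of named probe sets under these settings, 137 lost the call and 0 reversed. Most came from leaving out 1 array (95 lost the call, 2689 kept it), often an array outside the comparison. Benjamini-Hochberg adjustment is never the stricter and could lose none. Values of probe sets that failed the 65th percentile filter were not counted there. With all 27 leaf arrays fitted, 20 lost the call and 42 kept it. With only the groups compared, 6 lost it and 6 kept it. Nothing in the labels ties arrays of 1 number together, and correlations of same-numbered deviations ran on both sides of 0 (leaf mean 0.01). Without AT2, the leaf mean was 0.03 for same-numbered pairs and -0.02 for differently numbered pairs. In inflorescence without AT2 these means were 0.02 and -0.01. Whether arrays of 1 number share a batch was not tested. Of all arrays, 14 of 27 in leaf and 9 of 27 in inflorescence correlated best with their own number, and without AT2, 10 of 15 and 8 of 15. With the number as a block, the counts were 47 between the parents, 40 for TD, 50 for TTR13, 6 and 15 for S8 inflorescence against S5 to S7 and against Mix, 69 between tissues and 36 for the interaction. Depth is set by the background of the array, which hides levels under about 4.92.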
